A study of Homo sapiens with 8 samples.

Results

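Solute carriers are the largest set of membrane transporters in human cells, and the peaks described here are the 114 Cut&Run peaks that carry a solute carrier gene symbol in a list of PML::RARA sites of induced U937-PR9 cells. They were chosen by symbol alone, as every gene-labelled peak whose symbol begins with SLC and a number, leaving out the zinc transporter families SLC30 and SLC39. They name 103 genes of 31 families, out of 7169 gene-labelled peaks that name 6546 genes and 15412 peaks in all, and so make up 1.59% of the gene-labelled peaks (Wilson 95% interval 1.33 to 1.91). The symbols SLC7A5P2 and SLC22A20P belong to pseudogenes, SLC7A6OS to a gene on the strand opposite SLC7A6, and SLC9A3R1 to a regulator of sodium-proton exchangers that is not itself a carrier.

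U937-PR9 cells are a human monocytic line whose PML::RARA transgene is driven by a promoter that zinc switches on. Induced cells received 100 μM ZnSO4 for 5 h and uninduced cells received water, and the study describes 8 Cut&Run libraries, 2 replicates each of an anti-PML::RARA and an anti-RARA antibody in both states. In Cut&Run a nuclease tethered to the antibody releases the DNA around bound protein for sequencing. The list used here is that of the anti-PML::RARA antibody after induction. All cells of both states carry the transgene, and zinc was given to every induced culture, so an effect of zinc and one of the fusion protein cannot be told apart here. Each peak has 1 value for height and 1 for total signal and none per replicate, so there is no spread between replicates to set beside them, and the intervals given cover the counting or ranking of peaks only. No test over samples was possible and none was made over peaks, which are not replicates.

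PML::RARA is the fusion protein of acute promyelocytic leukemia and joins most of the retinoic acid receptor alpha, a nuclear receptor that binds repeated short motifs of DNA, to the PML protein. Solute carriers are grouped into families by sequence, and each family has its typical substrates, among them sugars, amino acids, nucleotides, lactate and other organic acids, vitamins and ions. The SLC25 family lies mostly in the inner mitochondrial membrane, where it exchanges metabolites, nucleotides and cofactors between mitochondria and cytosol, and leukocytes rely on several plasma membrane families for the glucose, glutamine and lactate traffic that growth and activation require.

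The sequence around the apex, the midpoint of the interval of largest signal, is shown for peaks that stand out by height or width, or that hold one of the less frequent motifs. Each is 81 bases of hg19 centred on the apex, written 5′ to 3′ on the strand of the gene. Capitals mark the letters of any motif searched, so a match on the opposite strand appears as its reverse complement. The motifs common at promoters were GGGCGG, which SP and KLF factors recognise, then CCAAT, the core of sites for the factor NF-Y, then GGAAGT, typical of the ETS family, and TGCGCA, the core that NRF1 recognises. The others were CACGTG, an E box read by MYC, USF and TFE factors, then AGGTCA, the motif shared by nuclear receptors such as RARA, then TGANTCA, the site of AP-1 dimers, and finally TGATGNAA, a composite for C/EBP and ATF partners. The first 4 lie under high or wide peaks: SLC17A9 at chr20:61585756-61585836 (plus strand), SLC43A3 at chr11:57192539-57192619 (minus strand), SLC3A2 at chr11:62649070-62649150 (plus strand) and SLC16A3 at chr17:80190010-80190090 (plus strand). Within these 81 bases SLC17A9 and SLC16A3 hold none of the searched motifs, while SLC43A3 holds GGGCGG and CCAAT and SLC3A2 holds GGGCGG and TGANTCA.
SLC17A9: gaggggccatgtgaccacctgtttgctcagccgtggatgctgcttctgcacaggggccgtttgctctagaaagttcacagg
SLC43A3: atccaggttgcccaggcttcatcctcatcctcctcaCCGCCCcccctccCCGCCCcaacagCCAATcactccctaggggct
SLC3A2: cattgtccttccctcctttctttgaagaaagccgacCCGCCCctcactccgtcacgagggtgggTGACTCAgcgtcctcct
SLC16A3: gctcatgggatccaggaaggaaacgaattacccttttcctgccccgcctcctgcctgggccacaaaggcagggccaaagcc

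A further 5 show how the motifs are arranged: SLC35B1 at chr17:47785599-47785679 (minus strand) and SLC26A6 at chr3:48672945-48673025 (minus strand) hold GGGCGG with CCAAT, SLC7A6 at chr16:68298048-68298128 (plus strand) has the nuclear receptor motif, SLC25A33 at chr1:9599333-9599413 (plus strand) has TGCGCA, and SLC22A16 at chr6:110796604-110796684 (minus strand) has the C/EBP-ATF composite.
SLC35B1: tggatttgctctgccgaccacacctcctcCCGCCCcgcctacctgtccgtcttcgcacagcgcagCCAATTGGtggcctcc
SLC26A6: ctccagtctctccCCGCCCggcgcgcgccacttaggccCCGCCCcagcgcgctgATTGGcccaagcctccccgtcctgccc
SLC7A6: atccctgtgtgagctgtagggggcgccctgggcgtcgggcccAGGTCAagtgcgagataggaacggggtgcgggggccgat
SLC25A33: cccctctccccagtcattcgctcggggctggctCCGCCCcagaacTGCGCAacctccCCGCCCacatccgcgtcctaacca
SLC22A16: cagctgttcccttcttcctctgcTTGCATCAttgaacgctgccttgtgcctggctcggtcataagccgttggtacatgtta

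Solute carrier promoters carried a labelled peak about as often as other genes. Of 349 annotated protein-coding solute carrier genes, 100 had a peak labelled with their own symbol, 28.7% (Wilson 95% interval 24.2 to 33.6), beside 30.3% of the 19741 other protein-coding genes. When every peak with its apex within 1 kb of an annotated start site was counted, whatever its label, 125 genes or 35.8% (31 to 41) had one, beside 39.4% of the other genes. No expression values were used here, so whether the genes without a peak are transcribed in these cells was not examined. Of 49 annotated families, 31 had a labelled gene, and the 18 families without one hold 54 genes.

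The mitochondrial carriers of SLC25 had the highest share among the 12 families with 10 or more genes. Of 48 annotated SLC25 genes, 28 were labelled, 58.3% (44.3 to 71.2), beside 72 of the 301 genes of all other families, 23.9% (19.4 to 29). Counted by apex within 1 kb of a start site, the shares were 62.5% for SLC25 and 31.6% (26.6 to 37.0) for the others. These intervals do not overlap, but SLC25 was singled out after its values were seen and no test was made. SLC6, which carries amino acids and neurotransmitters, had 2 of 19 genes labelled, SLC22 of organic ion transporters 3 of 22, SLC4 of bicarbonate transporters 1 of 11 and SLC5 of sodium-coupled glucose transporters 1 of 12. SLC43 with 3 of 3 genes, SLC33 with its single gene and SLC50 with its single gene were labelled throughout.

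**Figure D1:**
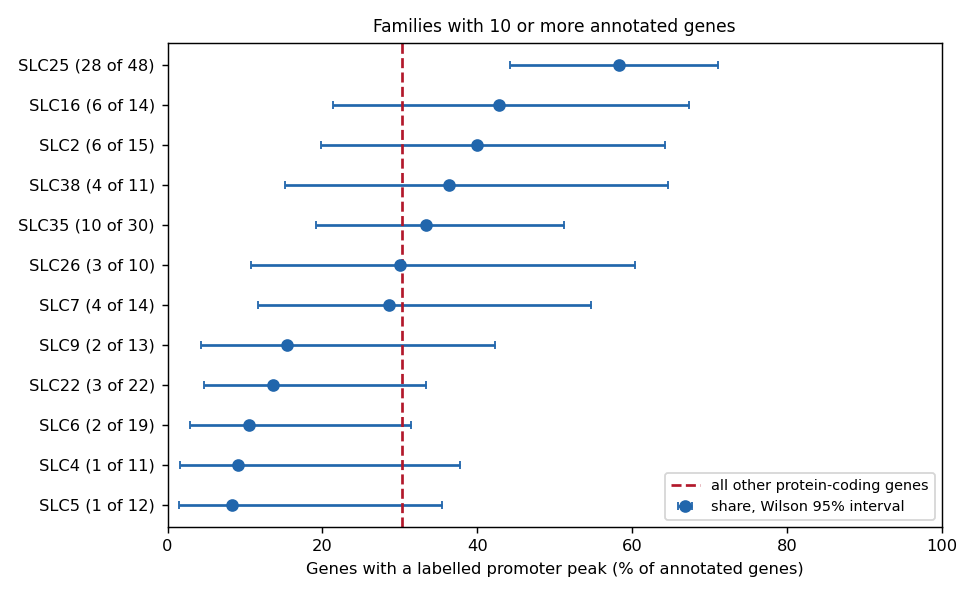
Share of annotated genes with a labelled promoter peak (x axis, percent) in the 12 solute carrier families with 10 or more annotated genes, with Wilson 95% intervals as bars. The broken line is the share over all other protein-coding genes, 30.3%; SLC25 lies at 58.3% with its interval above the line, and the intervals of the other 11 families include it.

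SLC25 genes with a peak included the iron importers SLC25A28 and SLC25A37, the phosphate carrier SLC25A3, the NAD carrier SLC25A51, the glutathione carrier SLC25A39, the carnitine and acylcarnitine carrier SLC25A20, the aspartate and glutamate exchanger SLC25A13 and the oxoglutarate carrier SLC25A11. The 20 without a labelled peak were SLC25A1, the citrate carrier, and SLC25A2, SLC25A4, SLC25A5, SLC25A6, SLC25A12, SLC25A14, SLC25A15, SLC25A18, SLC25A21, SLC25A25, SLC25A27, SLC25A31, SLC25A34, SLC25A41, SLC25A43, SLC25A46, SLC25A47, SLC25A48 and SLC25A52. Among them SLC25A4, SLC25A5 and SLC25A6 are ADP/ATP translocases. SLC25A5 had an unlabelled peak of height 35 at its start and SLC25A25 a start peak of height 55 that was labelled NAIF1, so some SLC25 starts with a peak are missed by a count of labels.

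Across all 114 peaks, height was close to that of other promoters. Height is the largest signal within a peak, in the units the authors deposited. The median was 27 (95% interval of the median 24 to 29), with quartiles of 21 and 33.8 and a range of 16 to 59, beside a median of 26 and quartiles of 20 and 35 for the 7055 other gene-labelled peaks. The mean log2 height differed by -0.03, solute carriers minus others, against a standard deviation between peaks of 0.45 among the solute carriers. At or above the upper quartile of the others, a height of 35, lay 25 of the 114 peaks, 21.9% (15.3 to 30.4), beside 25.5%. A height of 40, a limit chosen after the values were seen, was reached by 11 peaks, 9.65% (5.47 to 16.5), beside 15.7% of the others. At the low end 7 peaks, 6.14%, had a height of 16 or less, beside 6.05%.

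Solute carrier peaks were slightly wider by both median and mean log2 width. The median width was 1238 bp (95% interval 1065 to 1342) beside 1107 bp (1090 to 1125), a mean log2 difference of 0.10. At or above the upper quartile of the others, 1538 bp, lay 31 peaks, 27.2% (19.9 to 36), beside 25.1%. A width of 2500 bp, a limit also chosen after the values were seen, was reached by 9 peaks, 7.89% (4.21 to 14.3) beside 4.89%. Height and width go together across peaks (Spearman's rho 0.39 over the 114 peaks and 0.45 over the others, both measures taken from the same reads), so height was also compared within 10 classes of width. There the mean log2 difference was -0.06, and the solute carrier mean was the lower in 7 of the 10 classes. Mean signal per base had a median of 9.19 beside 9.08.

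**Figure D2:**
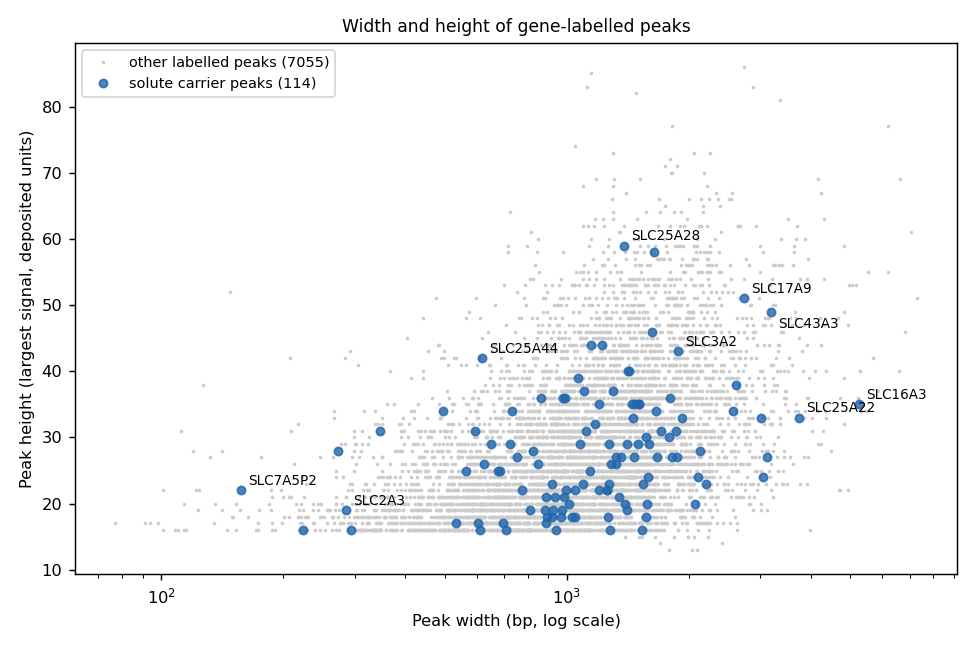
Peak width (x axis, bp, log scale) against peak height (y axis, deposited units) for 114 solute carrier peaks (blue) and 7055 other gene-labelled peaks (gray), each point 1 peak. The blue points lie across the body of the gray cloud; SLC25A28 is the highest at 59, SLC16A3 is the widest at 5260 bp and SLC7A5P2 the narrowest at 157 bp.

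Mitochondrial carriers held the highest peaks and spanned the full range of height. SLC25A28, which encodes the iron importer mitoferrin 2, had a peak at chr10:101380087-101381468 of height 59 and 1382 bp, higher than 98.7% of all peaks in the list. SLC25A42, which moves coenzyme A into mitochondria, had a height of 46. SLC25A23, a carrier of ATP-magnesium and phosphate, followed at 44, and SLC25A44, a carrier of branched-chain amino acids, reached 42 in a peak of only 617 bp. SLC25A35 had 37. SLC25A22, a glutamate carrier, was wide rather than high, with a height of 33 over 3729 bp, as were SLC25A29, a carrier of basic amino acids, at 24 over 3041 bp and the oxoglutarate carrier SLC25A11 at 33 over 1927 bp. At the other end SLC25A26, the carrier of S-adenosylmethionine, had a height of 16. The 33 SLC25 peaks had a median height of 27 (23 to 33), the same as the 81 peaks of other families at 27 (23 to 29), and a median width of 1104 bp beside 1273 bp.

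Amino acid transporters gave 22 peaks with a median height of 27 and a range of 18 to 49. Of the 61 annotated genes of families SLC1, SLC3, SLC6, SLC7, SLC32, SLC36, SLC38 and SLC43, 18 were labelled. SLC43A3, placed here by its family, was the highest at 49 over 3187 bp, at chr11:57192128-57195314. Its apex fell in intron 4 of its main transcript and 750 bp downstream of the nearest annotated start. Its relatives SLC43A1 and SLC43A2, carriers of large neutral amino acids, had lower peaks of 23 and 20 that were also wide, at 2198 and 2071 bp. SLC3A2 encodes the heavy chain that anchors several SLC7 carriers at the plasma membrane and is known as CD98. Its labelled peak at chr11:62647756-62649635 had a height of 43, and a start peak of height 49 was labelled SNORD25. SLC7A5 is a light chain that pairs with SLC3A2 to carry leucine and other large neutral amino acids. The labelled peak of SLC7A5, of 27 and 754 bp, lay 2045 bp upstream of its nearest start.

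Among the same group SLC1A4 and SLC1A5 carry neutral amino acids, SLC1A5 chiefly glutamine. SLC1A4 had 1 labelled peak of height 38 over 2616 bp, and SLC1A5 had a pair of 34 and 33. The SLC38 sodium-coupled carriers SLC38A1 and SLC38A2 both had a height of 27, with widths of 1870 and 3116 bp. SLC38A9, an arginine sensor of the lysosome, had 21, and SLC38A10 had 44, 27 and 26. The taurine carrier SLC6A6 had 33, the glycine carrier SLC6A9 had 24, SLC36A1 and SLC36A4 both had 19, and the lowest gene was the cationic amino acid carrier SLC7A1 at 18. SLC7A6 had 28, and SLC7A6OS had 40 at a start it shares with PRMT7 on the other strand. The median width of the group was 1579 bp (933 to 2132) beside 1184 bp (1030 to 1286) for the other 92 solute carrier peaks, intervals that overlap.

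Several amino acid carriers had no labelled peak. In SLC7 these were SLC7A2, SLC7A3, SLC7A4, SLC7A7, SLC7A8, SLC7A9, SLC7A10, SLC7A11, SLC7A13 and SLC7A14, and SLC7A11, which imports cystine for glutathione synthesis, had no peak of any label at its start or over the gene. In SLC38 they were SLC38A3, SLC38A4, SLC38A5, SLC38A6, SLC38A7, SLC38A8 and SLC38A11. The symbol SLC7A5P2 belongs to a pseudogene of SLC7A5, and reads of near-identical copies can be placed at either, so its narrow peak of height 22 is uncertain.

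Sugar carriers were labelled at 9 of 36 genes. None of their 9 peaks passed a height of 32, nor did 73.8% of all peaks in the list. The glucose carrier SLC2A1 had a height of 29 over 1593 bp, its apex 41 bp upstream of its start. SLC2A3, the high-affinity glucose carrier of leukocytes and neurons, had only 19 over 286 bp; SLC2A14 is a near-identical neighbour, so its reads may be shared. The fructose carrier SLC2A5 had 29, the insulin-responsive glucose carrier SLC2A4 and the intracellular carrier SLC2A8 both 21, and SLC2A11, the lowest, 17. The highest of the group was SLC37A4, which moves glucose 6-phosphate into the endoplasmic reticulum, at 32. SLC5A6, a sodium-coupled carrier of biotin and pantothenate placed here by its family, had 30, and SLC50A1 had 26. In SLC2 the genes without a labelled peak were SLC2A2, SLC2A6, SLC2A7, SLC2A9, SLC2A10, SLC2A12, SLC2A13, SLC2A14 and SLC2A4RG, the last a gene that the symbol rule takes in although it is no carrier. SLC2A9, a urate carrier, had an unlabelled start peak of height 34. By position, an unlabelled peak of SLC2A1 at an alternative start, 26844 bp downstream of its canonical start, reached 44. SLC37A1 had a start peak of 39 labelled RSPH1.

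Monocarboxylate and fatty acid carriers had 9 of 25 genes labelled and 10 peaks with a median height of 30.5. SLC16A3, which exports lactate from glycolytic cells, had the widest peak of all 114, 5260 bp at chr17:80185525-80190784, wider than 99.9% of the list, at a height of 35. SLC16A1, which carries lactate and pyruvate in both directions, had a narrower peak of 1325 bp and a height of 27. SLC16A13 was the highest of the group at 40, SLC16A6 had 34 over 2567 bp, SLC16A5 had 24 and 17, and SLC16A10, a carrier of aromatic amino acids, had 18. Genes without a labelled peak included SLC16A4, SLC16A7, SLC16A8, SLC16A9, SLC16A11, SLC16A12 and SLC16A14. The fatty acid transport proteins SLC27A5, SLC27A1 and SLC27A3 had 36, 35 and 23. The SLC27A5 apex lay in coding exon 7 of the canonical transcript, 245 bp upstream of an annotated alternative start.

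Nucleotide sugar transporters of the Golgi and endoplasmic reticulum had a median below that of all solute carriers. The 11 peaks of SLC33 and SLC35 had a median height of 22 and a range of 16 to 39. The highest was SLC35B1, which exchanges ATP and ADP across the endoplasmic reticulum, at 39, followed by the acetyl-CoA carrier SLC33A1 at 35 and the GDP-fucose carrier SLC35C1 at 31. SLC35B4 and SLC35E3 had 25, SLC35B2 and SLC35F5 22, the CMP-sialic acid carrier SLC35A1 20, SLC35E1 19, and SLC35F2 and SLC35F6 the lowest value, 16. The other 20 of the 30 annotated SLC35 genes had no labelled peak: SLC35A2, SLC35A3, SLC35A4, SLC35A5, SLC35B3, SLC35C2, SLC35D1, SLC35D2, SLC35D3, SLC35E2B, SLC35E4, SLC35F1, SLC35F3, SLC35F4 and SLC35G1 to SLC35G6. SLC35A4 had a start peak of height 49 that was labelled APBB3. Besides its own peak of 16, SLC35F2 had a start peak of height 32 that was labelled RAB39A.

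Inorganic ion and metal carriers had the lowest medians. The 12 peaks of the ion group had a median of 21.5 and a range of 16 to 37, and 11 of its 57 genes were labelled. SLC26A6, an exchanger of chloride, bicarbonate and oxalate, and SLC26A2, a sulfate carrier, had 37 and 36, followed by the regulator SLC9A3R1 at 36. The bicarbonate carrier SLC4A7 had 31, the mitochondrial sodium-calcium exchanger SLC8B1 20, and SLC12A5, the neuronal potassium-chloride carrier, 16. SLC8B1 also had a start peak of height 30 that was labelled PLBD2. Of the 11 metal and heme genes only SLC11A2, the iron importer, with 26 and 16, and SLC31A2, of copper transport, with 17, were labelled.

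Peptide, organic ion and vesicular carriers had few genes labelled and the highest median height of the substrate groups. Only 6 of 53 genes were labelled, and their 8 peaks, that of the pseudogene SLC22A20P included, had a median height of 32.5 and a range of 27 to 51. That median lay below the upper quartile of the other gene-labelled peaks, 35. SLC17A9 loads ATP into vesicles for release; its peak at chr20:61583630-61586360 had a height of 51 over 2731 bp, with the apex in intron 1, 1398 bp downstream of its nearest start. The lysosomal sialic acid carrier SLC17A5 had 35, the ergothioneine carrier SLC22A4 34, the carnitine carrier SLC22A16 31, SLC15A3, a lysosomal peptide and histidine carrier, 29, and SLC22A18 had 29 and 27. Vitamin, nucleoside and choline carriers had 5 of 24 genes labelled at 16 to 28, led by the thiamine carrier SLC19A2 and the choline carrier SLC44A2 at 28, with the folate carrier SLC19A1 lowest at 16. SLC66A3, in none of these groups, had 27.

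**Figure D3:**
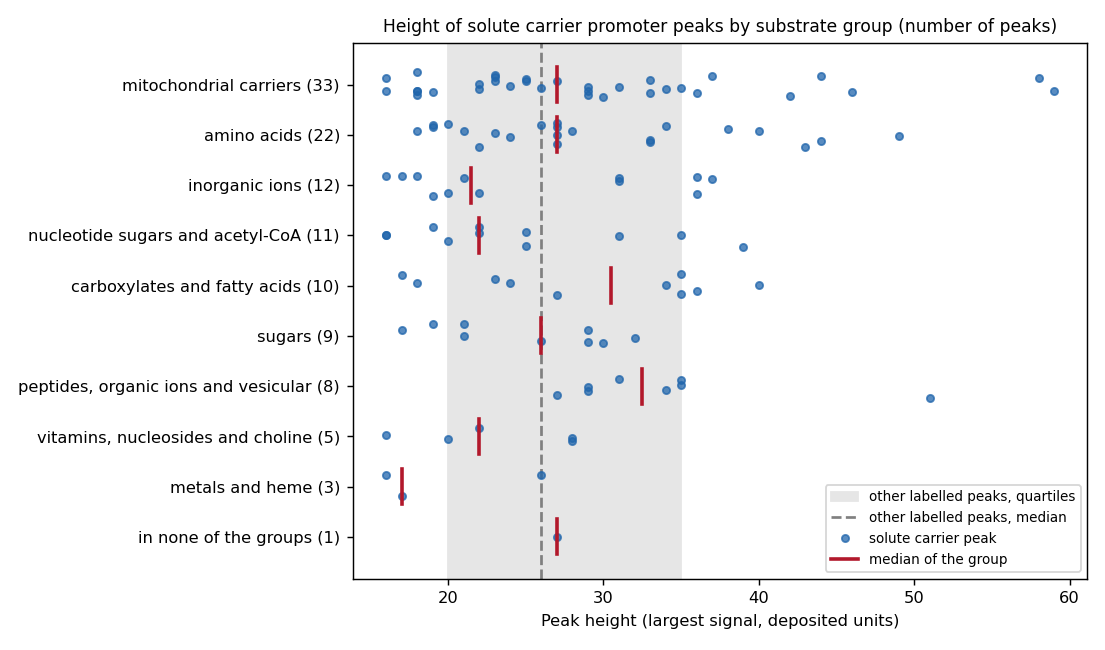
Peak height (x axis, deposited units) of the 114 solute carrier peaks by substrate group, each point 1 peak and the red line the group median; the number of peaks is in brackets. The gray band and broken line are the quartiles, 20 and 35, and the median, 26, of the other gene-labelled peaks; group medians run from 17 for metals and heme to 32.5 for peptides, organic ions and vesicular carriers.

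Carriers known for macrophage and lysosome functions were looked up whatever their values. SLC15A3 had 29 and SLC43A3 had 49, as given above. SLC48A1, a heme carrier of the lysosome, had no label of its own. Its higher start peak had a height of 30, and an unlabelled peak over the gene reached 35. SLC29A3, a lysosomal nucleoside carrier, had no start peak but 3 unlabelled peaks over the gene, the highest at 32. SLC11A1, a metal carrier of the phagosome, had no start peak and 1 peak over the gene that was labelled for another gene. No peak lay at the start of or over SLC15A4, SLC40A1, the iron exporter ferroportin, or SLC46A3.

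Peaks centred close to the start site of the gene they were named for. The median distance from apex to nearest annotated start of the own gene was 87 bp (70 to 107) beside 102 bp, 54.4% of apexes lay within 100 bp beside 49.4%, and 106 of 114, 93.0%, lay within 1 kb beside 92.3%. Upstream of that start lay 76.3%, beside 75.5%. On the canonical transcript 77 apexes were upstream, 10 in the 5′ UTR, 21 in an intron, 4 in a coding exon and 2 in an exon of a noncoding gene. The 8 apexes over 1 kb away were those of SLC17A9, SLC7A5 and SLC6A9 named above, SLC19A1 at 1143 bp upstream, a peak of SLC38A10 at 2272 bp upstream, a pair of SLC25A10 peaks at 1537 and 8854 bp upstream, and the second SLC25A28 peak. That SLC25A28 peak lay 36602 bp upstream of its own nearest start and 114 bp upstream of ENTPD7, and the far SLC25A10 peak lay 15 bp from the start of MRPL12, so in both the label and the nearest gene differ.

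More than 1 labelled peak was found for 9 of the 103 genes, 8.74% (4.67 to 15.8), beside 8.41% of the other labelled genes. In the following, positions are distances from the start of the canonical transcript, negative upstream of it. SLC38A10 had its highest peak, 44, inside the gene at 9622 bp, beside an annotated alternative start in intron 2, while the peak at the canonical start had 27. SLC25A28 had 59 at -241 bp and 25 at -38956 bp. SLC1A5 had similar heights at both places, 33 at -121 bp and 34 at 3613 bp in intron 1, but widths of 3015 and 733 bp. In SLC11A2 the peak at the start, 26, was higher than that at 17103 bp, 16. SLC16A5 likewise had 24 at -237 bp and 17 at 5134 bp. SLC22A18 had nearly equal heights, 27 at -40 bp and 29 at -2731 bp. SLC25A10, the dicarboxylate carrier, had 16 at -310 bp, 29 at -1585 bp and 18 at -8902 bp, so that its highest peak was not the one nearest its start. SLC25A33 had 31 at -151 bp and 19 at 429 bp, and SLC25A29 had 24 at 806 bp and 18 at 8963 bp.

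**Figure D4:**
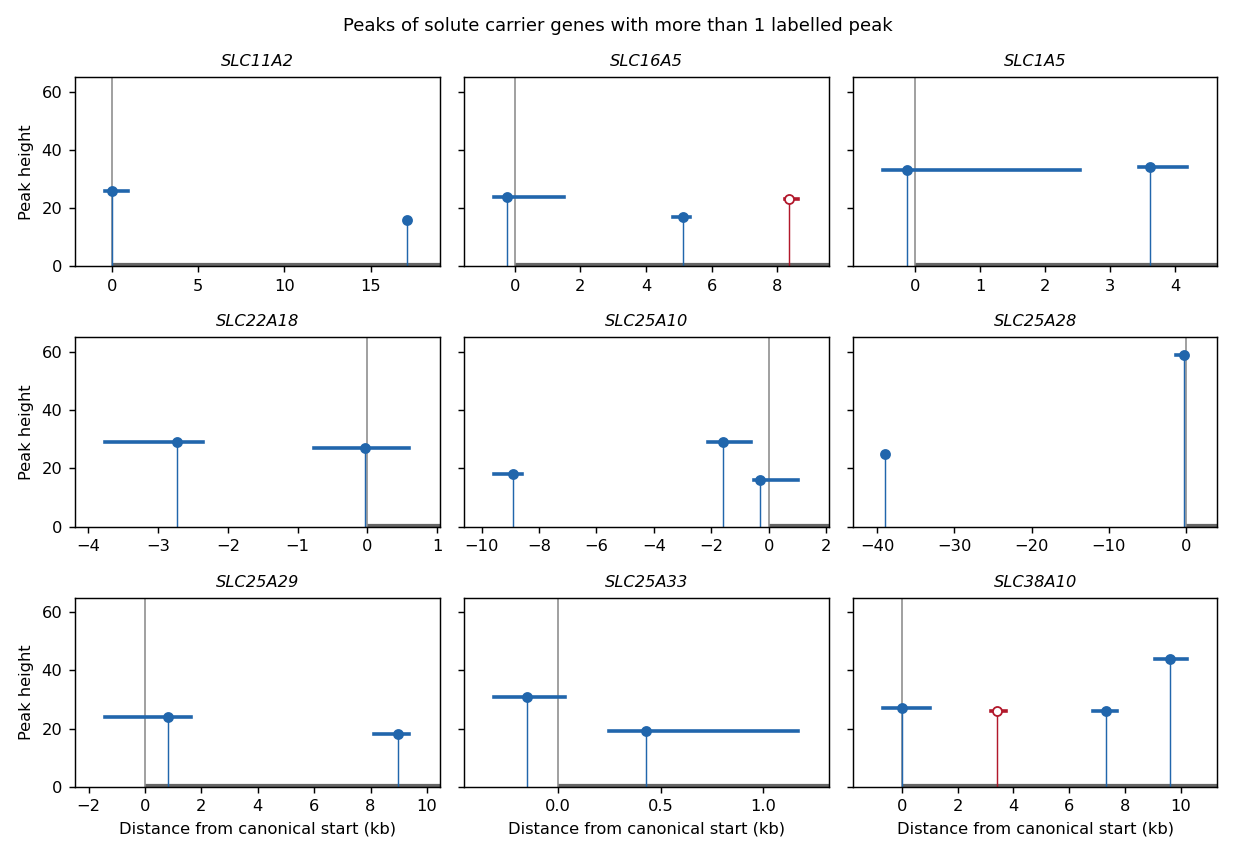
Peaks of the 9 solute carrier genes with more than 1 labelled peak, as height (y axis, deposited units) against distance from the canonical start (x axis, kb); points are apexes, horizontal bars peak widths, blue peaks carry the gene's label, red open ones no label, and the gray bar is the canonical transcript. In 5 of the 9 genes the highest labelled peak is the one nearest the start, and in SLC38A10, SLC25A10, SLC22A18 and SLC1A5 it is not.

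Few of these peaks lay at the start of another gene. Another protein-coding gene started within 1 kb of the apex at 11 of 114 peaks, 9.65% (5.47 to 16.5), beside 21.6% of the other gene-labelled peaks. Among the 11 are the second SLC25A28 peak and the far SLC25A10 peak, which do not lie at a start of their own gene. In the annotation alone, without regard to peaks, 21 of the 349 genes, 6.02% (3.97 to 9.02), had a start on the opposite strand within 1 kb of their own, beside 13.9% of all other genes. Among labelled genes it was 8 of 100 genes beside 15.8%. This comparison was chosen after the data were seen, and no test was made. Pairs with a labelled peak included SLC25A11 with RNF167, SLC25A32 with DCAF13, SLC5A6 with ATRAID, SLC25A40 with DBF4, SLC16A6 with ARSG, SLC20A2 with SMIM19 and SLC35F6 with CENPA. A peak between such starts cannot be given to 1 gene.

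Conversely, 29 of the 249 annotated genes without their own label had an apex within 1 kb of a start, 19 of them in a peak labelled for another gene and 10 in unlabelled peaks alone. The highest were SLC4A2, a chloride-bicarbonate exchanger, at 60 in a peak labelled CDK5, SLC25A25 at 55 labelled NAIF1, SLC35A4 at 49 labelled APBB3, the urea carrier SLC14A1 at 46 without a label, and SLC24A1 at 43 labelled INTS14. The copper importer SLC31A1 had 31 in a peak labelled FKBP15. Counted with the label, then, the highest solute carrier promoter was SLC25A28, and counted by position it was SLC4A2. No peak of any kind lay at the start of or over 199 of the 349 genes. The same count was not made over the other protein-coding genes, so it has no background beside it.

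The windows of 201 bp around the apex were rich in GC, at a median of 66.2% beside 64.7%, with a median of 18 CpG beside 17. GGGCGG was the most frequent motif, in 77 of the 114 windows, 67.5% (58.5 to 75.4) beside 61.8%, followed by CCAAT in 45, 39.5% (31 to 48.6) beside 33.3%, and GGAAGT in 29, 25.4% beside 25.5%. Both GGGCGG and CCAAT were present in 33 windows, among them those of SLC25A28, SLC43A3, SLC25A42, SLC35B1, SLC26A6 and SLC2A1. Windows of the same length 2 kb upstream held GGGCGG in 9.65%, CCAAT in 24.6% and GGAAGT in 13.2%. The nuclear receptor motif AGGTCA was in 9 windows, 7.89% (4.21 to 14.3) beside 9.31%, and 2 kb upstream in 14.9% beside 17.5%. Its 9 peaks were SLC6A6, SLC25A22, SLC7A6, SLC44A2, SLC22A18, SLC35B2, SLC26A9, SLC36A1 and SLC16A10, with heights of 18 to 33. No window held a direct repeat of AGGTCA with a spacer of 0 to 8 bases, beside 0.624% of the others, and 0 of 114 allows a share of up to 3.26% (upper Wilson bound); this search was added after the other motifs were seen.

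The E box CACGTG was in 14 windows, 12.3% (7.46 to 19.6) beside 7.44% (6.85 to 8.08), and in 2.63% of windows 2 kb upstream. The lower bound of that interval lay just above the share of the others, and it fell below it with the window on the peak midpoint, 7.89% (4.21 to 14.3) beside 5.24%, and among peaks no lower than the list's median height, 8.96% (4.17 to 18.2) beside 7.14%. The 14 peaks had a median height of 20 beside 27 for the 100 without it, a difference given as a description. The other gene-labelled peaks were not split in this way, so the difference has no background beside it. From the highest, the 14 were SLC16A13 at 40, SLC26A2 at 36, SLC22A4 at 34, SLC35C1 at 31, SLC16A1 at 27, SLC25A36 at 26, SLC2A4 at 21 and SLC36A1 at 19. Lower still were SLC31A2 and SLC12A9 at 17, and SLC25A26, SLC35F6, SLC25A10 and SLC19A1 at 16. The NRF1 core TGCGCA was in 3 windows, those of SLC27A5, SLC25A33 and SLC25A10, 2.63% (0.899 to 7.45) beside 10.3% (9.60 to 11). With the window on the peak midpoint it was in 4.39% (1.89 to 9.86) beside 6.85%, an interval that includes the share of the others. TGANTCA was in 6, 5.26% beside 4.72%, and included SLC3A2 at 43 and SLC38A10 at 44. TGATGNAA was in 4, SLC1A5, SLC25A11, SLC22A16 and SLC2A5, 3.51% (1.37 to 8.68) beside 1.30%, and on the midpoint in 1.75% (0.482 to 6.17) beside 0.95%, again an interval that includes the others. These letters describe the windows only, and whether any factor was bound there was not tested.

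**Figure D5:**
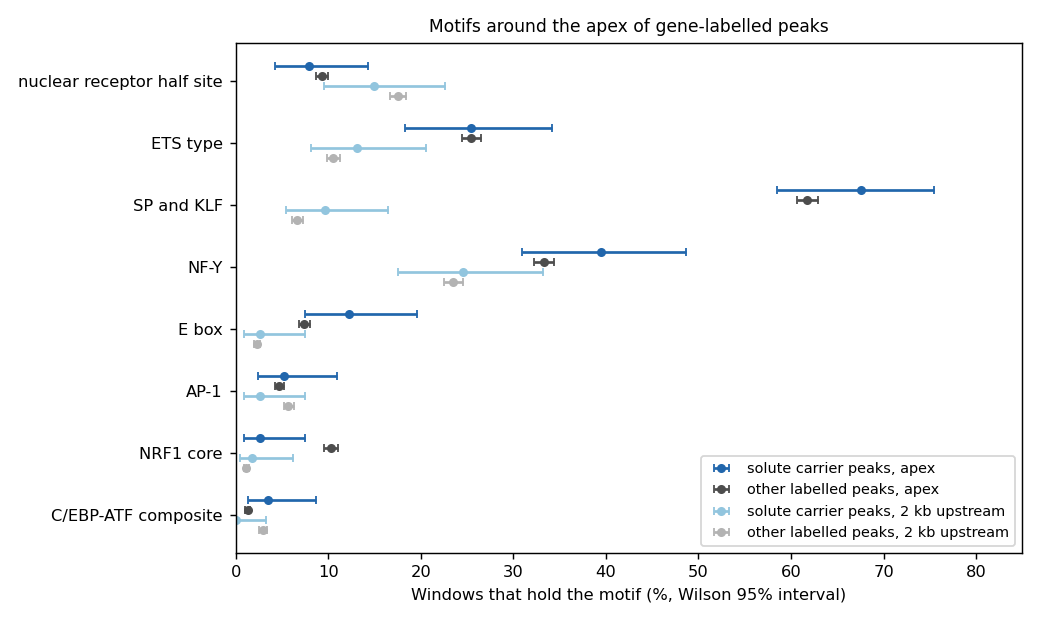
Share of windows that hold each of 8 motifs (x axis, percent, bars are Wilson 95% intervals) around the apex and 2 kb upstream, for 114 solute carrier peaks (blue) and 7055 other gene-labelled peaks (gray and black). At the apex the solute carrier intervals include the share of the other peaks except for the NRF1 core, at 2.63% beside 10.3%, the E box, at 12.3% beside 7.44%, and the C/EBP-ATF composite, at 3.51% beside 1.30%, and with the window on the peak midpoint, not plotted, all 3 of these intervals include it.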

How the data were processed

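Cut&Run libraries were made from nuclei of U937-PR9 cells. For the deposited list the authors used Trimmomatic for trimming, Bowtie2 for alignment to hg19, SAMtools and Bedtools for removal of duplicate and blacklisted reads, and SEACR (norm union) for peak calls over paired controls. They kept peaks with an IDR below 0.05 across replicates and gave each peak the symbol of a gene whose promoter held its apex; versions are not given in the sources used here. The deposited values are a total signal per peak and a score that is its largest signal, here called height, both in whole numbers; which replicate or pool they come from, their normalization and the sequencing depth are not stated.

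Peaks were matched to GENCODE release 44 on GRCh37, the same build as hg19. Intervals are 95% Wilson intervals for shares and binomial order-statistic intervals for medians. Both strands of the 100 bp on each side of an apex were searched for motifs. Python 3.11.15, pandas 2.3.3, numpy 2.4.6, scipy 1.17.1 and pysam 0.24.0 were used, and the scripts were tested on simulated data. The members, gene lists and rules were chosen with earlier results of these data known. Named genes are the 15 highest, 15 widest and 10 lowest peaks, genes with more than 1 peak, extremes of each substrate group, all genes of 6 families and 16 carriers of glucose, amino acids, lactate or myeloid cells; others were named after their values were seen, and a few that the rule takes in are not reported here. Alternatives merged neighbouring peaks, raised the height threshold, changed the symbols counted, took 1 peak per gene, left out the widest peaks or moved the motif window.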

Additional observations from a re-analysis of the deposited data

How the results depend on the processing

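Of 77 alternatives to 18 results, 67 stayed within the interval of the reported value or, for counts, within 1.5 times. Restricted to peaks no lower than the list's median height, there were 67 solute carrier peaks of 62 genes, and 17.2% of annotated genes were labelled. The same share over the other genes was not computed at this threshold. The median width was 1382 bp beside 1302 bp for the others, and fewer peaks enter by construction. Counting any apex within 1 kb of a start raised the share of annotated genes from 28.7% to 35.8%, beside 39.4% of the other genes. With the 90th percentile of the others in place of their upper quartile, 6.14% of the peaks reached it in height, beside 10.5% of the others, and 11.4% in width, beside 10.0%. With the window on the peak midpoint, GGAAGT was in 12.3% beside 18.1%, GGGCGG in 51.8% beside 54.8% and CCAAT in 19.3% beside 21.3%, so for GGGCGG and CCAAT the solute carriers changed from above to below the others; the cause was not tested. With that window the intervals for TGCGCA at 4.39%, CACGTG at 7.89% and TGATGNAA at 1.75% included the shares of the others, which at the apex they did not. No paired analysis was possible because each peak has a single deposited value, which also means that neither replicate could be left out. Depth is unknown, so a gene without a peak is one where none was called.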

Other observations

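Peaks without a gene label also lay over solute carrier genes. Among the 103 genes with a labelled promoter peak, 28 had 49 such peaks, a peak over both SLC7A6 and SLC7A6OS being counted for each. Their median height was 26 beside 23 for the 8243 unlabelled peaks of the list. Of the 49, 10 reached a height of 40, a value that 86.4% of all peaks in the list fell below. The share of all unlabelled peaks that reached it was not computed. The share of the other labelled genes with unlabelled peaks over them was not computed either. The taurine carrier SLC6A6 had 50 in intron 5 and 49 in intron 6, above its labelled peak of 33. SLC22A4, the ergothioneine carrier, had 48 in intron 1, SLC9A3R1 had 46 and 45 in intron 1, and SLC1A4 had 43 in intron 6. In SLC2A1, the glucose carrier, 4 unlabelled peaks lay in introns 1 and 2, the highest at 44, beside 29 at its labelled peak. The apexes of 49 in SLC6A6, 48 in SLC22A4 and 44 in SLC2A1 lay within 1 kb of an annotated start of that gene. SLC43A2 had 41 in intron 12 and SLC7A5 had 40 in intron 1 at 15644 bp from its canonical start, beside 20 and 27 at their labelled peaks. SLC16A3 had 3 more peaks of 37, 36 and 31 around its wide promoter peak of 35. Whether these elements act on the gene they lie in was not tested.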
